A study of Mus musculus with 9 samples.

Results

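The 43 genes described here encode the machinery that brings glucose into mouse muscle, breaks it down to pyruvate and lactate, and stores it as glycogen. They were taken from a list of gene symbols. Each gene was read from its brightest probe set over the arrays, judged by mean log2 signal among probe sets assigned exactly 1 symbol. Of the 43 genes, 40 had such a probe set or, for Gapdh, a manufacturer control probe set, and 39 were tested, among 13662 tested genes and 29269 tested probe sets in all. Gpi1, Pfkfb1 and Eno1 had no probe set in the annotation used and were not analysed here.

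Muscle fibers take up glucose through GLUT1 and GLUT4, trap it with hexokinase, and either split it through glycolysis or add it to glycogen. Phosphofructokinase sets much of the glycolytic rate, and its activator fructose 2,6-bisphosphate is made and removed by the PFKFB enzymes. The tibialis anterior is composed mainly of fast glycolytic fibers, in which the muscle isoforms of these enzymes are very abundant. Glucocorticoids such as dexamethasone are known to lower glucose uptake in muscle and to favor the release of amino acids.

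The study asked how turmeric extract (TE) affects muscle wasting caused by dexamethasone (DEX), a synthetic glucocorticoid. RNA from tibialis anterior muscle (250 ng) was hybridized to Affymetrix GeneChip arrays, 1 array per mouse and 3 mice per group. All mice were C57BL/6J males, 15 weeks of age, on an AIN93-based diet. The control group was injected with saline, the DEX group with DEX at 5 mg/kg body weight every day for 7 d, and the DEX + TE group with the same DEX on the diet with 2% TE, which the methods start 5 d before the injections and the labels describe as following DEX. The mice used for the arrays had body and muscle weights near the average, so that the arrays cover mice chosen for that. There was no group given TE without DEX.

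Signals are the deposited linear intensities, for which the mean of each array, trimmed by 2% at both ends, is 500. A signal of one probe set cannot be set against that of another, so each gene was compared only with itself across groups. Array medians ranged from 71.3 to 95.0, and 58.5 to 65.2% of probe sets had a signal of 50 or more. Correlations between arrays were 0.920 to 0.949. In whole muscle, fewer cells of a type and less RNA per cell cannot be told apart. Mean signals of all 13 markers of fast fibers, such as Myh4 and Actn3, were above 50 in every group, as were those of 8 slow fiber markers.

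None of the 39 genes passed the test in any comparison (limma over 29269 probe sets, Benjamini-Hochberg adjusted p under 0.05 and absolute log2 fold change of at least 0.6). Rank Product, the test named in the methods, also called 0 in each, and 0.26%, 0.082% and 0.441% of all probe sets for DEX against control, DEX + TE against DEX and DEX + TE against control. By limma, 0.502% of all probe sets passed for DEX against control, 0.0137% for DEX + TE against DEX, and 0.379% for DEX + TE against control. In DEX against control, 32 of the 39 genes were lower by value (54.5% of all genes were), and their median log2 fold change was -0.25, against -0.03 over all genes tested. The genes with the lowest p were the muscle isoforms of lower glycolysis, Pgam2 and Eno3, and the ones with the largest higher values were Pfkfb3 and Fbp2. The DEX + TE group stood near the DEX group, with a median of 0.04 against DEX and 0.04 over all genes.

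Before adjustment, p was under 0.05 for DEX against control in 11 of the 39 genes with lower and 3 with higher values, where all genes gave 9.15% lower and 6.16% higher. The 11 were Pfkm, Tpi1, Pgam2, Eno3, Ldha, Pdha1, Pdhb, Pygm, Phkb, Phkg1 and Gpd2, and the 3 were Pfkfb3, Fbp2 and Gbe1. The groups were wholly apart in 16 genes with lower DEX values and in 3 with higher ones, beside 13.6% and 9.66% of all genes. These shares depended on brightness. At a mean signal of 30000 or more, 70.3% of all genes and 6 of 8 on this list were lower at that p. There, 65.9% of all genes and 6 of 8 were apart with lower values. Between 10000 and 30000 it was 24.3% of all genes and 3 of 11, with 40.05% and 7 of 11 apart. Between 1000 and 10000 it was 8.89% and 2 of 11, with 16.5% and 2 of 11 apart. The smallest adjusted p was 0.0938, for Pgam2. An exact permutation test of 3 against 3 arrays cannot give a two-sided p below 0.1.

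For DEX + TE against control the median was -0.19, against 0.02 over all genes, and 32 of the 39 genes were lower by value, as were 46.6% of all genes. With an unadjusted p under 0.05 there were 11 genes with lower and 2 with higher values, beside 6.78% and 7.64% of all genes. The groups were apart in 17 lower and 4 higher genes, beside 12.3% and 12.4% of all genes. At a mean signal of 30000 or more, 26.4% of all genes and 5 of 8 on this list were lower at that p. There, 48.4% of all genes and 5 of 8 were apart. Between 10000 and 30000 it was 22.6% of all genes and 2 of 11, with 43.0% and 6 of 11 apart. For DEX + TE against DEX, 1 gene (Hk2) was lower and 1 (Pfkl) higher at that p, beside 1.49% and 5.96%, and the groups were apart in 3 genes each way, beside 5.27% and 9.73%. The comparisons share the DEX and the control arrays.

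**Figure D1:**
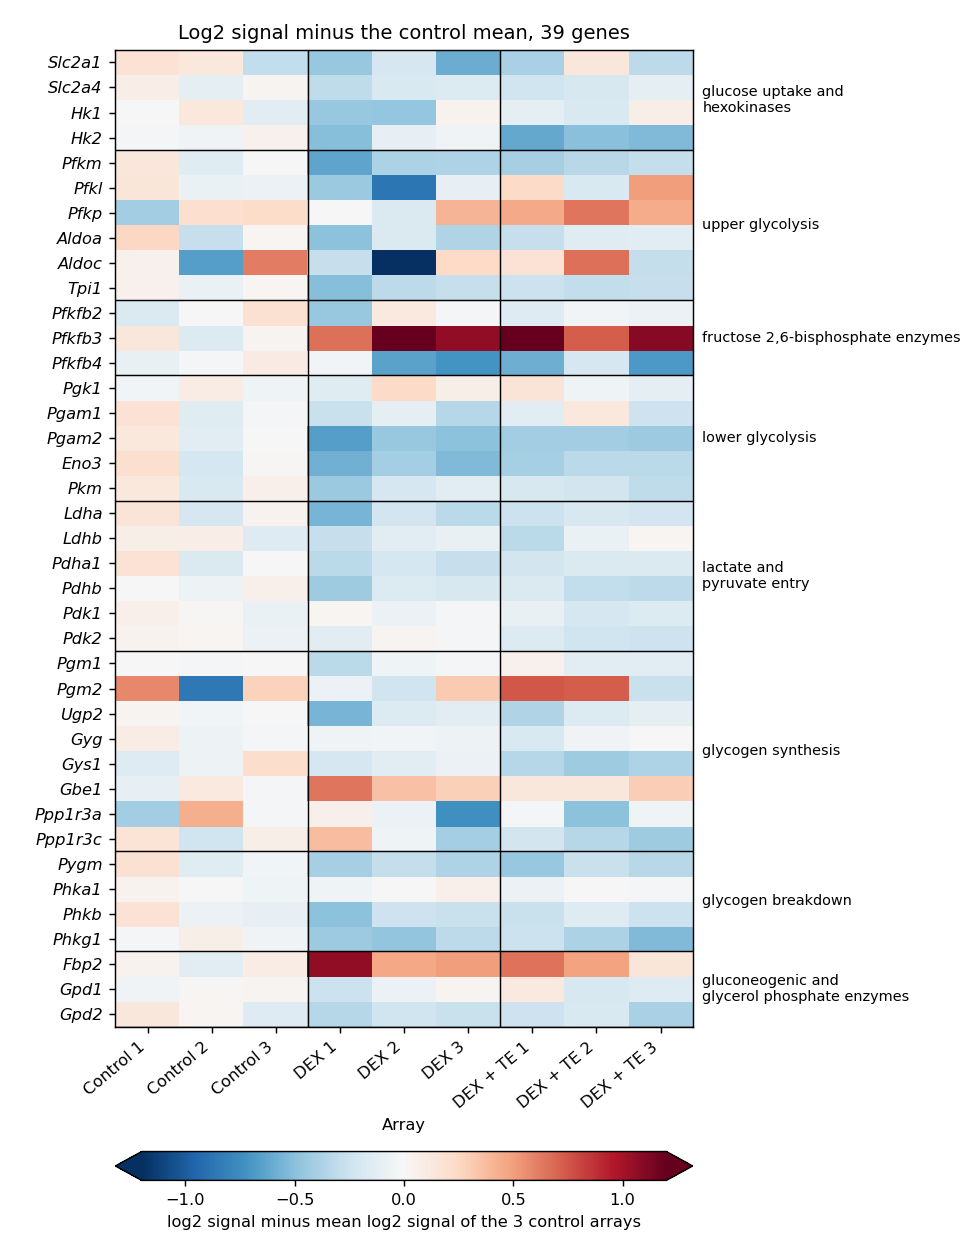
Log2 signal of the 39 tested genes on each of the 9 arrays, minus the mean log2 signal of the 3 control arrays, with genes ordered by role and red for higher and blue for lower. Most rows are pale blue on the DEX and DEX + TE arrays, Pfkfb3 and Fbp2 are red on them, and dim genes such as Aldoc vary within each group.

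The sequences around the start sites of Pfkfb3, Fbp2 and Pgam2 are shown because Pfkfb3 and Fbp2 had the largest higher values after DEX injection and Pgam2 had the lowest p. They run from 250 bases before to 50 after each start (RefSeq, GRCm38.p6). ACGTG, the core letters to which hypoxia-inducible factors bind, is in capitals in the first 3, and the E-box CANNTG, to which myogenic factors bind, in the fourth. CACGTG is also an E-box and holds ACGTG on both strands, so the capitals there mark that overlap.

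Pfkfb3 (downstream start, chr2:11502041-11502340, minus strand): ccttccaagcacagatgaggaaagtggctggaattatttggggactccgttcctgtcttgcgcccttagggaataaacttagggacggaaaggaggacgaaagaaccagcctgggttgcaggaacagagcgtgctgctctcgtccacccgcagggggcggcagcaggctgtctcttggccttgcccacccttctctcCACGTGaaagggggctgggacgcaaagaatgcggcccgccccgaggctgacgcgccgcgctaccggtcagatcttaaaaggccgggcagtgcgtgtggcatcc
Pfkfb3 (upstream start, chr2:11553880-11554179, minus strand): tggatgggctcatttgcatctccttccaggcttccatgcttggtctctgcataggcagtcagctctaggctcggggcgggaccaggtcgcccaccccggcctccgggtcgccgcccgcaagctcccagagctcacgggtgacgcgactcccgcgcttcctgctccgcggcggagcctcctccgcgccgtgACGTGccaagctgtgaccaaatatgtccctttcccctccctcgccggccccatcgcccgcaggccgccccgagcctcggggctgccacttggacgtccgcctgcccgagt
Fbp2 (chr13:62858351-62858650, minus strand): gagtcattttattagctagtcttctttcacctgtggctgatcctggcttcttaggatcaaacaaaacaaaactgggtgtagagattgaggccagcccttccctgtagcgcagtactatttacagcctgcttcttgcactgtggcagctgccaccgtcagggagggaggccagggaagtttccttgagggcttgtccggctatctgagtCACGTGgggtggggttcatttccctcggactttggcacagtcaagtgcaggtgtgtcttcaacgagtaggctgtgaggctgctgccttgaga
Pgam2 (chr11:5803747-5804046, minus strand): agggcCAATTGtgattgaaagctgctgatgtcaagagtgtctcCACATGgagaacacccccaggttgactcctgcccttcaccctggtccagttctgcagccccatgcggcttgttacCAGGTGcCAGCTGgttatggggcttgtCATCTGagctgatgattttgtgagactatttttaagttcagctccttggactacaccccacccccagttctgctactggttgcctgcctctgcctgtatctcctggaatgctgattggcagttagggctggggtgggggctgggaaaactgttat

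The capitals begin 53 bases before the downstream Pfkfb3 start, 60 before the upstream start and 42 before that of Fbp2. Promoters were found for 41 of the 43 genes, with 62 start sites, and Gpd1 and Slc2a4 were without. On either strand, ACGTG stood in 27 of the 62 (43.5%) and in 19.6% of all 32851 mouse promoters of this length. CACGTG stood in 8 of the 62 (12.9%) and 7.15% of all. CANNTG stood in 74.2% and 72.3%, AGAACA, an arm of the sequence bound by the glucocorticoid receptor, in 17.7% and 19.0%, and TATAAA in 6.45% and 13.6%. These are matches of letters only, and starts of one gene are not independent.

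Glucose uptake and phosphorylation genes were lower by value in all 4 cases in DEX against control, between -0.42 and -0.22 on the log2 scale. Hk2, the insulin-responsive hexokinase of muscle, had signals of 16459, 16118 and 17241 on the control arrays, 11653, 15522 and 16089 on the DEX arrays and 10823, 11724 and 11528 on the DEX + TE arrays. Its DEX + TE values lay below every control value and, apart from DEX 1, below the DEX values. The log2 fold change was -0.55 ± 0.14 (SE) against control (limma, adjusted p = 0.166) and -0.33 ± 0.14 against DEX (adjusted p = 0.634), and -0.22 for DEX against control. Slc2a4, which encodes the insulin-responsive transporter GLUT4, had 12655, 11072 and 12199 on the control arrays, 9681, 10550 and 10660 on the DEX arrays and 10147, 10433 and 11022 on the DEX + TE arrays. Its control group lay above both others, by a log2 fold change of -0.22 ± 0.10 for DEX against control (adjusted p = 0.372). A second Slc2a4 probe set gave 0.05 and overlapped. Slc2a1, the basal transporter GLUT1, and Hk1, the broadly expressed hexokinase, overlapped between groups in their brightest probe sets, while another Slc2a1 probe set was wholly lower in DEX than in control (-0.37, adjusted p = 0.348).

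In upper glycolysis, 5 of 6 tested genes were lower by value in DEX against control, and 2 (Pfkm and Tpi1) had an unadjusted p under 0.05. Pfkm, the muscle phosphofructokinase, had 49075, 40242 and 44803 on the control arrays, 28662, 34325 and 34553 on the DEX arrays and 33812, 35397 and 36535 on the DEX + TE arrays. Both DEX-injected groups lay wholly below control. The log2 fold changes were -0.46 ± 0.12 (adjusted p = 0.159) and -0.34 ± 0.12 (adjusted p = 0.293). Tpi1, triose phosphate isomerase, was lower in both injected groups on every array, by -0.37 and -0.28. Aldoa, the muscle aldolase, stood at -0.34 for DEX against control, with an overlap between groups, and its dimmest probe set gave 0.11.

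The other isoforms of this stage were dim. In their brightest probe sets, Pfkl, Pfkp and Aldoc were all higher by value in DEX + TE than in DEX under each of the 3 scalings, without passing the test. Dim genes in general leaned the same way as deposited. Of all genes with a mean signal under 100, 30.2% were lower in that comparison, and of those between 100 and 1000, 39.4%. The medians were 0.36 and 0.06. Pfkl, the liver phosphofructokinase, had 232, 198 and 200 on the control arrays, 154, 115 and 196 on the DEX arrays and 245, 184 and 296 on the DEX + TE arrays. Its log2 fold change for DEX + TE against DEX was 0.65 ± 0.24 (adjusted p = 0.592), but the other 2 of its 3 probe sets gave -0.10 and 0.19. Pfkp, the platelet isoform, had 140, 214 and 217 on the control arrays, 188, 166 and 247 on the DEX arrays and 256, 290 and 254 on the DEX + TE arrays, all of the latter above the others (0.43 ± 0.22 against DEX, adjusted p = 0.694, and 0.51 against control). Aldoc, the brain aldolase, reached 50 on 2 control, 1 DEX and 2 DEX + TE arrays, with 51, 31 and 75, then 40, 8 and 58, then 55, 78 and 40. Its log2 fold change of -0.87 for DEX against control rested on the signal of 8 on DEX 2 and was -0.02 without that array. Its adjusted p was 0.621. The second Aldoc probe set did not pass the filter on signal, with mean signals of 39 in DEX and 7 in DEX + TE.

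The enzymes of fructose 2,6-bisphosphate held the largest higher value of all 39 genes. Pfkfb3, which makes this activator of phosphofructokinase, had 2339, 1899 and 2174 on the control arrays, 3364, 5712 and 4443 on the DEX arrays and 7049, 3517 and 4551 on the DEX + TE arrays. Every value of both injected groups lay above the control group, and the injected groups overlapped each other. The log2 fold change was 1.05 ± 0.29 for DEX against control (adjusted p = 0.169), 1.18 ± 0.29 for DEX + TE against control (adjusted p = 0.155) and 0.13 ± 0.29 between them. A second probe set gave 0.82 and 1.01 against control. Pfkfb4, a related enzyme, had 1554, 1632 and 1772 on the control arrays, 1613, 1058 and 1007 on the DEX arrays and 1103, 1438 and 1022 on the DEX + TE arrays. It was -0.46 and -0.49 against control (adjusted p = 0.375 and 0.366), with only DEX + TE wholly below control. Pfkfb2, the heart isoform, stayed within -0.12 to 0.03 in its brightest probe set. Its dimmer probe sets varied more, with overlaps, and one near the minimum of 50 had mean signals of 43 (control), 46 (DEX) and 76 (DEX + TE).

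Lower glycolysis held the lowest p among the 39 genes. Pgam2, muscle phosphoglycerate mutase, had 46464, 38880 and 42701 on the control arrays, 26884, 31134 and 30348 on the DEX arrays and 31926, 31825 and 31386 on the DEX + TE arrays. Every injected array lay below every control array, and DEX + TE lay just above DEX. The log2 fold changes were -0.53 ± 0.11 (adjusted p = 0.0938), -0.42 ± 0.11 (adjusted p = 0.167) and 0.11 for DEX + TE against DEX (adjusted p = 0.837). Eno3, muscle enolase, had 70844, 53414 and 62585 on the control arrays, 41396, 46585 and 42986 on the DEX arrays and 46947, 49545 and 49373 on the DEX + TE arrays. Its groups stood apart in the same way, with -0.50 ± 0.12 (adjusted p = 0.139) and -0.35 ± 0.12 (adjusted p = 0.291). With quantile normalization of the arrays, DEX against control was -0.09 for Eno3 and -0.26 for Pgam2. Pkm, pyruvate kinase, stood at -0.26 for DEX against control, with an overlap. Pgk1, phosphoglycerate kinase, was 0.05 and overlapped, but its other 2 probe sets gave -0.23, with DEX wholly below control, and -0.22. The non-muscle mutase Pgam1 overlapped.

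Gapdh, which catalyzes the step before Pgk1, was read here only from 3 control probe sets for the 3′, middle and 5′ ends of its transcript, outside the fit. Another 3 probe sets carried its symbol among several and were not used. The 3′ probe set read 59294, 44287 and 53856 on the control arrays, 34202, 44328 and 40212 on the DEX arrays and 42861, 45153 and 45068 on the DEX + TE arrays. DEX and control overlapped there, narrowly, while the middle and 5′ probe sets were apart. The log2 differences between DEX and control were -0.40, -0.40 and -0.41.

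At the exit from glycolysis all 6 genes were lower by value in DEX against control, and 3 had an unadjusted p under 0.05. Ldha, the muscle lactate dehydrogenase subunit, had 57815, 45193 and 53539 on the control arrays, 35328, 44333 and 41453 on the DEX arrays and 43512, 45354 and 44349 on the DEX + TE arrays. DEX lay below control, and the log2 fold change was -0.37 ± 0.13 (adjusted p = 0.265). Pdha1 and Pdhb, subunits of the pyruvate dehydrogenase complex that feeds pyruvate to the mitochondria, were -0.27 and -0.26. Pdk2, a kinase that switches this complex off, was lower in DEX + TE than in control and DEX on every array (-0.22 and -0.18, adjusted p = 0.356 and 0.697), and Pdk1 likewise (-0.15 and -0.13). Ldhb, the heart subunit, overlapped in its brightest probe set, and in the other 3 both injected groups lay wholly below control, with -0.43 to -0.24 for DEX (adjusted p 0.0979 to 0.406).

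Of the 8 glycogen synthesis genes, 6 were lower and 2 higher by value in DEX against control, with Pgm2 among the higher at 0.00. Ugp2 had 32208, 30720 and 31424 on the control arrays and 21320, 28150 and 28860 on the DEX arrays (-0.28, adjusted p = 0.414). In all 5 of its probe sets DEX lay wholly below control. Pgm1 was -0.13, with DEX just below control in its brightest probe set and an overlap in the other. Gbe1, the branching enzyme, had 2339, 2703 and 2466 on the control arrays, 3911, 3192 and 3050 on the DEX arrays and 2743, 2738 and 3063 on the DEX + TE arrays. DEX was wholly above control (0.43 ± 0.13, adjusted p = 0.195), and DEX + TE also lay above control and overlapped DEX (0.19 against control, adjusted p = 0.548). Gys1, muscle glycogen synthase, had 4174, 4433 and 5370 on the control arrays, 4037, 4246 and 4408 on the DEX arrays and 3661, 3452 and 3589 on the DEX + TE arrays. DEX + TE was below all other arrays (-0.38 ± 0.12 against control, adjusted p = 0.239). The second Gys1 probe set went the other way against control, with 0.27 for DEX (wholly above control, adjusted p = 0.315) and 0.12 for DEX + TE. Ppp1r3c, which targets protein phosphatase 1 to glycogen, had 27064, 20402 and 25332 on the control arrays, 31072, 23265 and 18163 on the DEX arrays and 20654, 19049 and 17887 on the DEX + TE arrays, and overlapped throughout. Its second probe set gave 0.41 for DEX against control, also with an overlap, and read 17078 on DEX 1 but 7729 and 6179 on the others. In that probe set DEX + TE (6304, 6034 and 5228) lay wholly below control (7114, 6590 and 7362). Pgm2, a phosphoglucomutase, ran from 67 to 203 with the groups overlapping.

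Glycogen breakdown was lower by value in 3 of 4 genes in DEX against control, all with an unadjusted p under 0.05 and groups apart. Pygm, muscle glycogen phosphorylase, had 42983, 34303 and 37063 on the control arrays, 28805, 31030 and 29298 on the DEX arrays and 27712, 31460 and 30184 on the DEX + TE arrays. Both injected groups lay below control (-0.35 and -0.35, adjusted p = 0.230 and 0.257). Phkg1, the catalytic subunit of phosphorylase kinase in muscle, had 5495, 5881 and 5428 on the control arrays, 4139, 4030 and 4502 on the DEX arrays and 4673, 4307 and 3878 on the DEX + TE arrays. It too was below control on every injected array (-0.41 ± 0.11, adjusted p = 0.158, and -0.39 ± 0.11, adjusted p = 0.194), and its second probe set gave -0.40. Phkb, a regulatory subunit, was -0.34. Phka1, the muscle alpha subunit, was 0.00.

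Fbp2, muscle fructose bisphosphatase, which runs against phosphofructokinase, had 2043, 1816 and 2110 on the control arrays, 4141, 2740 and 2812 on the DEX arrays and 3110, 2776 and 2196 on the DEX + TE arrays. All injected arrays lay above all control arrays. The log2 fold changes were 0.68 ± 0.20 (adjusted p = 0.195) and 0.43 ± 0.20 (adjusted p = 0.403) against control, and -0.25 for DEX + TE against DEX. Gpd2, the mitochondrial glycerol phosphate dehydrogenase, was -0.28 in DEX and Gpd1, the cytosolic one, -0.10, in their brightest probe sets. The second Gpd2 probe set was wholly below control in DEX. Its dimmer ones overlapped, with mean log2 signals of 9.18 and 6.37 in control and 9.20 and 6.46 in DEX. The other tested Gpd1 probe sets overlapped too, at 11.46 and 8.50 in control and 11.57 and 7.98 in DEX.

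**Figure D2:**
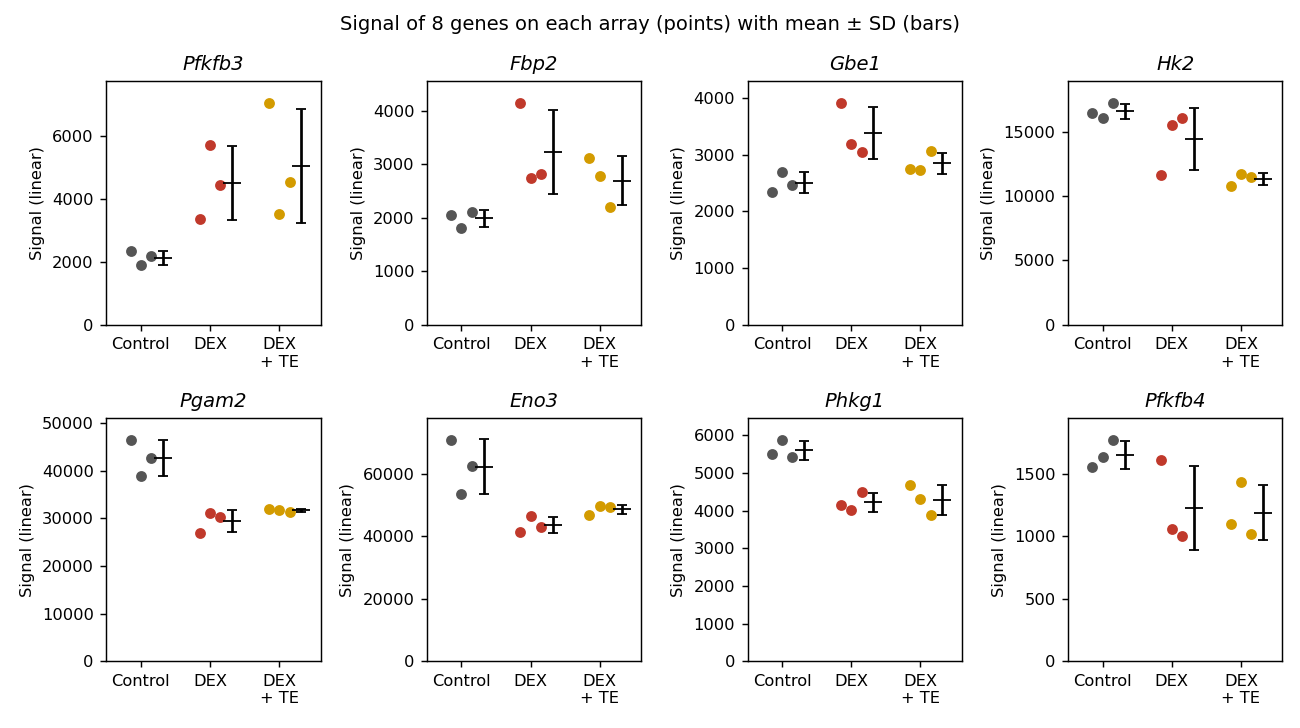
Linear signal of 8 genes on each array (points, 3 arrays per group) with the group mean and SD (black bars), each axis starting at 0. Pfkfb3, Fbp2 and Gbe1 lie higher on the DEX arrays than on the control arrays, Pgam2, Eno3 and Phkg1 lower, and the mean of Hk2 is lowest in the DEX + TE group.

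Where a gene had several probe sets, 11 of 21 genes had all of them in the same direction in DEX against control. The values of bright genes moved together. For genes with a mean signal of 30000 or more, the median log2 fold change of DEX against control was -0.34 over all 91 such genes, 94.5% of them lower, and -0.37 over the 8 genes of this group. Between 10000 and 30000 it was -0.11 over 407 genes and -0.22 over 11 of this group, and between 1000 and 10000 it was 0.00 over 3429 genes and -0.10 over 11. The fast fiber markers were lower by value in 13 of 13 (median -0.44, 0 called), with summed signals of 700758 to 950296 on control and 535058 to 670601 on DEX arrays. Of the 8 slow fiber markers, 7 were higher by value (median 0.55, 0 called). Some of these rested largely on DEX 2. Tnni1 (0.39) read 278 on DEX 2 but 97 and 96 on DEX 1 and DEX 3, below every control array. Myl2 (0.96) read 1592 on DEX 2 but 440 and 503 on DEX 1 and DEX 3, with an overlap with control. Atp2a2 was higher by 0.08 in its brightest probe set, while its other tested probe sets gave -0.02, -0.13 and -0.02, all with overlaps. Myh7 (2.22), Myoz2 (0.92) and Tnnc1 (0.71) had groups apart, with adjusted p of 0.209, 0.139 and 0.171. Myh7 read only 83, 23 and 76 on the control arrays, near the minimum of 50. Myl3 was lower, at -0.70 with an overlap (adjusted p = 0.330), and its other probe sets gave -0.57 and -0.83. The summed signals of the slow fiber markers overlapped, from 7821 to 13624 on control and 10263 to 14599 on DEX arrays. DEX 1 gave the lowest DEX value in 17 of the 19 genes with a mean signal of 10000 or more, and Control 1 the highest control value in 16. The part of these fiber markers and arrays in the lower values was not tested.

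**Figure D3:**
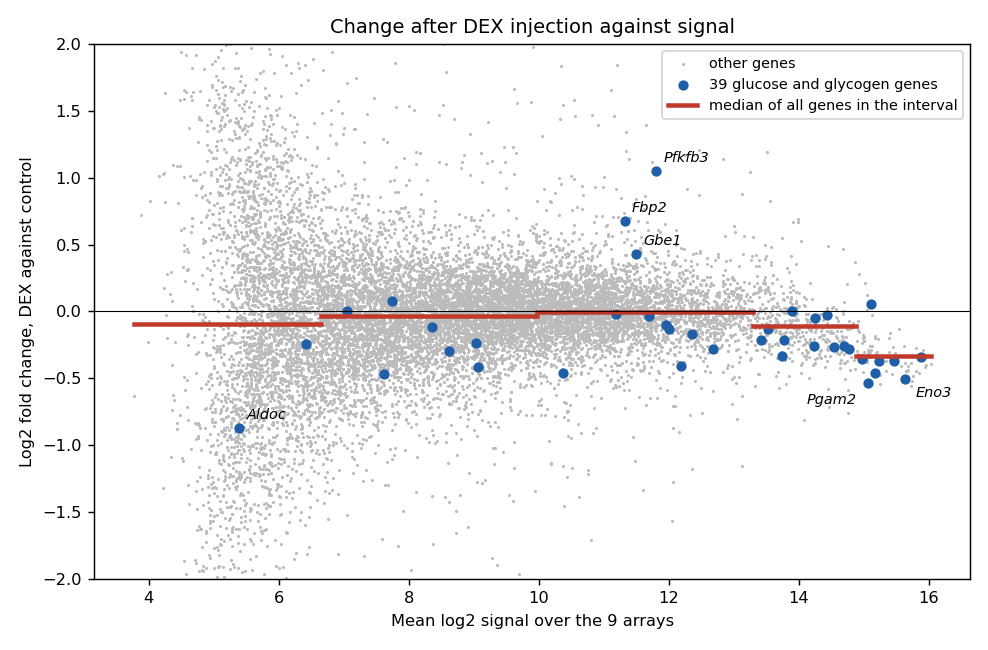
Log2 fold change of DEX against control (vertical axis, cut at 2 either way, with 148 genes outside) against mean log2 signal over the 9 arrays (horizontal axis), for the 39 genes (blue), all other tested genes (grey) and the median of all genes in 5 intervals of signal (red lines). The blue points on the right fall near the red line at -0.34, and Pfkfb3 and Fbp2 lie above the bulk of genes of their signal.

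Markers of other cell types differed between groups as well. Of 8 fibroblast markers, 4 were called lower in DEX against control, with summed signals of 35807 to 54738 on the control arrays, 19108 to 23005 on the DEX arrays and 29647 to 31398 on the DEX + TE arrays. Of 5 tested adipocyte markers, 0 were called in DEX against control and 2 were called higher in DEX + TE against control. Their summed signals were 20790 to 24728, 16584 to 20037 and 20298 to 22666 in the control, DEX and DEX + TE groups, most of it from Fabp4, which stood at -0.40 for DEX against control (adjusted p = 0.208). The other 4 lay wholly above control in DEX, by 0.35 (Lep) to 1.23 (Adipoq), without passing the test. No marker of either list was at 0. Of 7 endothelial markers, Cldn5 was called higher in both injected groups against control. In each injected group 5 of the 7 were higher and 2 lower by value than control, with medians of 0.18 (DEX) and 0.08 (DEX + TE). In DEX + TE, 2 of these markers stood wholly above control and 1, Pecam1, wholly below it. The part of these cells in the values of Pfkfb3, Slc2a1 and Hk1, which many cell types express, was not tested.

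The scaling of the arrays moved these values. When every array was centred at its own median, the median of all genes went from -0.03 to 0.07 for DEX against control and from 0.04 to -0.22 for DEX + TE against DEX. Relative to all genes the 39 genes then stood at -0.21 in DEX against control with either scaling, and at -0.09 after quantile normalization. For DEX + TE against DEX 28 of 39 genes were higher by value as deposited (57.4% of all genes), 4 after centring (25.5% of all genes) and 23 after quantile normalization (50.3%). Centring shifts every gene alike, and relative to all genes the median stood at 0.00 both as deposited and centred, and at 0.02 after quantile normalization. For DEX against control 32, 27 and 29 were lower by value. After quantile normalization that comparison gave -0.17 (Pfkm), -0.07 (Tpi1), 0.01 (Aldoa), -0.09 (Eno3), -0.02 (Ldha), -0.09 (Pygm) and -0.26 (Pgam2). Phkg1 (-0.42), Phkb (-0.31), Pfkfb3 (1.03) and Fbp2 (0.65) stayed near their values as deposited.

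**Figure D4:**
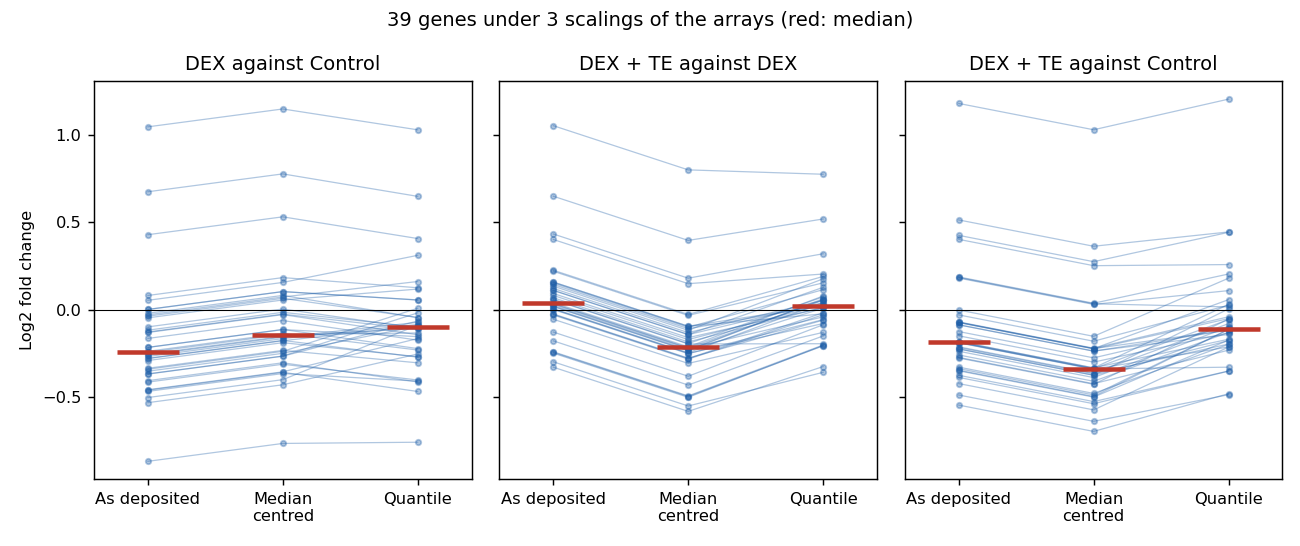
Log2 fold change (vertical axis) of each of the 39 genes (blue lines) in the 3 comparisons with the values as deposited, with each array centred on its median and after quantile normalization (red bars, median of the 39). The median for DEX + TE against DEX falls from 0.04 to -0.21 on centring and returns to 0.02 with quantile normalization.

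Beyond the 39 genes, a wider list of 107 genes covered other transporters, isozymes, pyruvate and glycogen regulators, branch pathways and transcriptional and kinase regulators. Of the 90 tested, 1 was called lower in DEX against control, 0 in DEX + TE against DEX and 1 in DEX + TE against control, and 0 were called higher. That gene was Prkag3, the γ3 subunit of AMP-activated protein kinase, which is largely confined to fast glycolytic muscle. It had 4838, 4330 and 4275 on the control arrays, 1913, 2226 and 2043 on the DEX arrays and 2723, 2531 and 2445 on the DEX + TE arrays.

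Prkag3 fell by 1.12 ± 0.11 on the log2 scale in DEX against control (adjusted p = 0.0114) and by 0.80 ± 0.11 in DEX + TE against control (adjusted p = 0.0372). Its 3 groups did not overlap, and DEX + TE was 0.32 above DEX (adjusted p = 0.562). The first call was lost with the replicate number as a block (adjusted p = 0.0684) and in a fit of the 6 arrays compared (0.0930). The second was lost in 13 of 18 alternatives, among them each of the 9 arrays left out in turn (adjusted p 0.0501 to 0.131).

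Of the other genes of the wider list, Slc2a3, the high-affinity transporter GLUT3, had 390, 418 and 609 on the control arrays, 1878, 1131 and 1211 on the DEX arrays and 1398, 1411 and 1127 on the DEX + TE arrays. Both injected groups were above control (1.56, adjusted p = 0.0524, and 1.49, adjusted p = 0.0682). Pdk4, the kinase that limits pyruvate oxidation and is induced by fasting and glucocorticoids, had 14651, 19495 and 22826 on the control arrays, 16040, 14669 and 18558 on the DEX arrays and 11044, 9181 and 12154 on the DEX + TE arrays. DEX and control overlapped (-0.19), and DEX + TE was below both (-0.61 and -0.80, adjusted p = 0.545 and 0.155). Prkab2, the β2 subunit of the same kinase as Prkag3, was below control on every DEX array (-0.49, adjusted p = 0.0786).

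**Figure D5:**
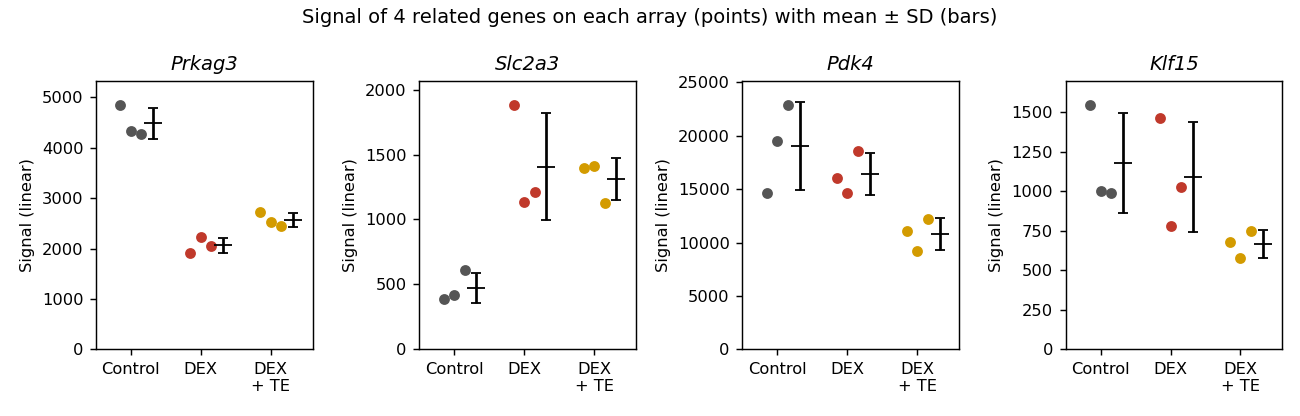
Linear signal of Prkag3, Slc2a3, Pdk4 and Klf15 on each array (points, 3 arrays per group) with the group mean and SD (black bars). Prkag3 is lower and Slc2a3 higher in both DEX-injected groups, and Pdk4 is lowest on the DEX + TE arrays. Klf15, a glucocorticoid-responsive transcription factor, had 676, 576 and 749 in the DEX + TE group and overlapped between DEX and control.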

How the data were processed

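The authors deposited 1 linear intensity per probe set and array for 45101 probe sets. The methods name Robust Multi-array Average, usually given in log2. Whether these linear intensities, scaled to a trimmed mean of 500 with unequal medians, came from it is not given in the sources used. Arrays (9) were grouped from the labels. The 64 control probe sets were left out, and 29269 were kept where the mean log2 signal of a group reached that of 50. Symbols came from the array annotation (34945 probe sets with 1 symbol, 932 with several, 9160 with none). Log2 signals of all 9 arrays, without offset, were analysed with lmFit and eBayes of limma 3.58.1 (R 4.3.3) over 3 group means, with Benjamini-Hochberg adjustment. The thresholds, 0.05 and 0.6, are those of the methods. Rank Product, the test of the methods, was run in Python 3.11.15 with 100 permutations, and called 0 of the 39 genes in each comparison. The fit was tested on simulated data. Precision is limited by the number of arrays.

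The members and lists were chosen with earlier results of these data known. Values of every array are given for members called or among the 6 with the largest change in a comparison, and for further genes chosen after their values were seen. Alternatives were other scalings, filters, an offset of 16, a trended variance, 6 arrays, a block and each array left out. Same-numbered arrays did not deviate together (correlations -0.021 to 0.048), and the fit did not pair them. The labels number the replicates and do not say whether arrays of the same number were processed together.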

Additional observations from a re-analysis of the deposited data

How the results depend on the processing

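No member was called in any comparison under the alternatives run, except with a mean-variance trend, which called 2 in DEX against control (Pfkfb3 and Fbp2, both higher) and 1 in DEX + TE against control (Pfkfb3). Among the values recomputed, the members' median for DEX + TE against DEX changed sign, with centring and without DEX 1. Centring each array on its median gave members' medians of -0.14 (DEX against control), -0.21 (DEX + TE against DEX) and -0.34 (DEX + TE against control), and quantile normalization gave -0.10 and -0.11 for DEX and DEX + TE against control. The number of members lower at an unadjusted p under 0.05, a count chosen after seeing the data, went from 11 in DEX against control to 3 with centring, 5 with quantile normalization, 17 with the trend and 6 with only the 6 arrays. In DEX + TE against control it went from 11 to 18, 5 and 17 with the same scalings and trend, 7 with no filter on signal, and 5 with the replicate number as a block. The block called 0 members in each comparison. Leaving out each array in turn gave 6 to 12 lower members for DEX against control and 4 to 12 for DEX + TE against control. Both minima came without Control 1, and DEX 1 left out gave 7 in the first. Control 3, DEX + TE 1 and DEX + TE 3 left out gave 6, 5 and 6 in the second. The medians were then -0.27 to -0.18, -0.02 to 0.10 and -0.21 to -0.14. The cause of these shifts was not tested. Apart from Rank Product, shares of all genes called or at an unadjusted p under 0.05 were not taken for the alternatives. Their counts of members therefore have no background beside them. Only 3 members (Pfkfb3, Fbp2 and Aldoc) reached the fold minimum of 0.6 in DEX against control. With the trend Pgam2 and Eno3 had an adjusted p of 0.00225 and 0.00823 there and failed on fold alone.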

Other observations

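The branches that leave glycolysis were measured by 12 genes of the pentose phosphate and hexosamine pathways, of which 0 were called in any comparison (limma) and 1, 0 and 2 were higher at an unadjusted p under 0.05 in DEX against control, DEX + TE against DEX and DEX + TE against control, where all genes gave 6.16%, 5.96% and 7.64%. Pgd, 6-phosphogluconate dehydrogenase, had 361, 558 and 459 on the control arrays, 787, 751 and 697 on the DEX arrays and 657, 726 and 798 on the DEX + TE arrays. Both injected groups lay above control (0.72, adjusted p = 0.127, and 0.68, adjusted p = 0.163). Gfpt2, which starts the hexosamine pathway, had 179, 153 and 221, then 161, 291 and 424, then 383, 463 and 383, with DEX + TE above control (1.16, adjusted p = 0.211) and DEX overlapping it. Pck1, the cytosolic enzyme that turns oxaloacetate to phosphoenolpyruvate, read 19, 26 and 63 on the control arrays, 81, 163 and 120 on the DEX arrays and 209, 181 and 245 on the DEX + TE arrays, without overlap between any of the groups. Only 1 of the 3 control arrays reached 50, so no fold is given, and it was not called (adjusted p = 0.134 and 0.0682 against control). In the same arrays the adipocyte markers Adipoq and Retn were called higher in DEX + TE against control. Their part in the Pck1 values was not tested.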
